A study of Mus musculus with 9 samples.

Results

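Integrin subunits of mesenchymal cells were followed here as the genes Itga1, Itga2, Itga5, Itga8, Itga11, Itgav, Itgb1, Itgb3, Itgb5 and Itgb8, a list of 10 symbols. All 10 were found among the 24453 genes of the table, and all 10 passed the filter on low reads. RNA sequencing covered 9 libraries, with 3 each from hepatic stellate cells of normal livers (HSCs), from fibroblasts of livers injured by carbon tetrachloride (CCl4-fib) and from fibroblasts of livers with non-alcoholic steatohepatitis (NASH-fib). All mice were of the C57BL/6J strain. HSCs came from wild-type mice and were collected from the middle layer of a density gradient, with no sort on a reporter. CCl4-fib came from Col1a2-GFP Tg mice, in which the collagen alpha 2(I) promoter drives green fluorescent protein, after CCl4 at 2 doses per week for 8 weeks. NASH-fib came from the same transgene on an MC4R-KO background, deficient in the melanocortin 4 receptor, in male mice put on Western diet at 8 weeks of age for 20 weeks. Ages were not found for the other groups. Both kinds of fibroblasts were sorted as CD45- GFP+ cells, so they hold what expressed the collagen reporter, and every library pooled cells of 3 to 5 mice. The way of isolation, the transgene and the injury therefore cannot be told apart between HSCs and fibroblasts, and the genotype, the diet and the toxin cannot be told apart between NASH-fib and CCl4-fib.

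Integrins are receptors that span the cell membrane as a pair of 1 alpha and 1 beta subunit and tie the extracellular matrix to the actin cytoskeleton. The alpha subunits Itga1, Itga2 and Itga11 pair with Itgb1 to bind collagens, Itga5 with Itgb1 to bind fibronectin, and Itga8 with Itgb1 to bind nephronectin and other ligands that hold the RGD motif. Itgav pairs with Itgb1, Itgb3, Itgb5 or Itgb8, and several of these pairs release transforming growth factor beta from its latent complex. In the liver, stellate cells and the fibroblasts they give rise to are a main site of this activity during fibrosis.

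Libraries held between 3071070 and 5634273 reads on genes, and 1 read was worth between 0.794 and 1.46 units of the normalized read count. Mc4r, the gene disrupted in MC4R-KO mice, was read 4, 13 and 0 times in the NASH-fib libraries and 0 times in all 6 others. The labels do not say whether that allele can still be transcribed, so these reads could not check them. Summed over 5 markers of quiescent stellate cells, the normalized read count was 25768 to 31013 in HSCs, 2603 to 2862 in CCl4-fib and 1778 to 2059 in NASH-fib. Summed over 6 markers of activated fibroblasts, it was 4495 to 8699, 31448 to 38344 and 20127 to 22614 in the same order. These 6 include Col1a2, whose promoter drives the reporter used for the sort, with means of 1429, 13982 and 5516. The rise of this sum is therefore in part set by the sort and is no independent check. Postn, also among the 6, had lower means in fibroblasts, at 4523 in HSCs, 1878 in CCl4-fib and 1457 in NASH-fib. Markers of other cells were present too. The 6 hepatocyte markers summed to 22723 to 37343 in HSCs, 2308 to 3747 in CCl4-fib and 8489 to 29315 in NASH-fib. The 6 sinusoidal endothelial markers summed to 4798 to 10832, 161 to 194 and 861 to 2932, and the 6 macrophage markers to 2565 to 8780, 160 to 230 and 440 to 1825. In the other direction, the 4 mesothelial markers summed to 100 to 422 in HSCs, 5869 to 12170 in CCl4-fib and 1595 to 12229 in NASH-fib. The 5 portal fibroblast markers summed to 120 to 159, 6188 to 8064 and 2121 to 4755. None of these markers had 0 reads in a whole group.

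HSC replicate 2 and NASH-fib replicate 1 were the libraries of their groups with the lowest values of GC-rich genes. Over the 3396 genes with a GC content of at least 54.5%, the median difference from the other 2 libraries of the group was -0.74 in HSC replicate 2 and -1.20 in NASH-fib replicate 1, on the log2(value + 1) scale. Over the 3395 genes with at most 45.2%, it was 0.57 and 0.78. HSC replicate 3 and NASH-fib replicate 2 lay furthest the other way, at 0.64 and 0.95 over the first set and -0.43 and -0.34 over the second. Each value is relative to the other 2 libraries of the group, so these departures are not independent of each other. Itga5, Itgb5 and Itga11, with 57.5%, 57.0% and 55.5% GC in their exons, are among the GC-rich genes. Itgb1, Itga8, Itga2, Itgav, Itga1 and Itgb8, between 44.8% and 40.4%, are among the GC-poor ones, and Itgb3 lies between them at 52.1%.

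The collagen-binding subunits Itga1 and Itga11 stood on opposite sides of the comparison between HSCs and fibroblasts. Their genes lie on mm10 chromosome 13, from 114958081 to 115101964 on the minus strand (Itga1, NM_001033228), and on chromosome 9, from 62677855 to 62783979 on the plus strand (Itga11, NM_176922). The 250 bases before each start are shown because these genes had the largest differences of the 10, in opposite directions, in CCl4-fib against HSCs. They were read from RefSeq promoters of GRCm38.p6 at chr13:115101965-115102214 and chr9:62677605-62677854 and are written 5′ to 3′ on the strand of the gene.
Itga1: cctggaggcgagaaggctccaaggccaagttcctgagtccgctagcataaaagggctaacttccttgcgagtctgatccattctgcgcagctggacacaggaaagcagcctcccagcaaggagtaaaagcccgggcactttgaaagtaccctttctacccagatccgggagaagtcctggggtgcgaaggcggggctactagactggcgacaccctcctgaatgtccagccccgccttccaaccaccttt
Itga11: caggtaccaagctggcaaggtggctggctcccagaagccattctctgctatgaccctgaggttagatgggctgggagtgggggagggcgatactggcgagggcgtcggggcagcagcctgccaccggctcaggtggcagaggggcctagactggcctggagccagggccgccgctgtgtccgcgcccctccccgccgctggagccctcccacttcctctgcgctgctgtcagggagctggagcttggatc
The windows hold 10 and 12 CpG dinucleotides, against a median of 6 over 32851 promoters. On neither strand does a window hold the GC box, written GGGCGG, which 32.7% of all promoters of this length hold. The TATA box, searched as TATAAA, was held by 12.4% of all promoters and by 0 of the 9 members with a promoter in the table. The AP-1 motif, searched as TGANTCA, stood in 6.75% of all and the CArG box in 1.47%, and again in 0 members, while the TEAD motif, searched as CATTCC, stood in 12.6% of all and in Itgb1 alone of the 9. A match or its lack concerns the letters only.

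Itga1, the alpha subunit that binds basement membrane collagen with Itgb1, had normalized read counts of 1396, 1656 and 996 in HSC replicates 1, 2 and 3. The CCl4-fib libraries had 185, 165 and 199 and those of NASH-fib 623, 492 and 282. The 3 groups did not overlap, with every NASH-fib library between the other groups. Itga1 fell by 2.85 on the log2 scale in CCl4-fib against HSCs (SE 0.37, 7.2-fold lower, adjusted p = 0.000371 by limma with Benjamini-Hochberg adjustment over 13651 genes). It fell by 1.58 in NASH-fib against HSCs (SE 0.37, 2.98-fold lower, adjusted p = 0.0177). The first call held in all 20 alternative settings and the second in 15, being lost without HSC replicate 1, HSC replicate 2 or NASH-fib replicate 3, with the date of the library label as a term and with these 2 groups alone (adjusted p = 0.0562 to 0.195 by limma). In these bulk samples, fewer cells that carry a transcript and less of it per cell cannot be told apart. The sinusoidal endothelial markers, whose cells also express Itga1, had the same order of groups, and their part in this difference was not tested. Within HSCs, Itga1 was highest in replicate 2, and so were Cdh5 and Lyve1 of the 6 markers, while Pecam1, Stab2, Kdr and Clec4g were lowest there. HSC replicate 2 is the library low in GC-rich genes, and Itga1 is among the GC-poor ones. The part of base composition in this order was not tested.

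Itga11, which pairs with Itgb1 to bind fibrillar collagen and is known from fibroblasts, had 0, 1 and 0 reads in the HSC libraries. The CCl4-fib libraries had normalized read counts of 97.6, 38.3 and 35.3 and those of NASH-fib 21.8, 102 and 79.6, from 16 to 123 reads. Every fibroblast library lay above every HSC library. Against 3 reads per HSC library, Itga11 was at least 14.9-fold higher in CCl4-fib (adjusted p = 0.000593 by limma) and at least 17.8-fold higher in NASH-fib (adjusted p = 0.000796 by limma). The call in CCl4-fib held in all 20 alternatives. That in NASH-fib was lost with the label date as a term (adjusted p = 0.0584 by limma). Mesothelial and portal fibroblast markers moved with Itga11 between HSCs and fibroblasts, and their part was not tested. NASH-fib replicate 1, the library low in GC-rich genes, was the lowest of the fibroblast libraries.

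Itga2, the collagen receptor subunit known from platelets and epithelia, was low throughout. It had 1.17, 5.82 and 7.17 in the HSC libraries, 23.0, 0 and 6.68 in those of CCl4-fib and 1.36, 11.6 and 21.6 in those of NASH-fib. The groups overlapped, and the log2 difference of 0.20 between CCl4-fib and HSCs had a 95% interval from -2.52 to 2.92, so a sizeable change in either direction was not detectable at this depth.

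**Figure D1:**
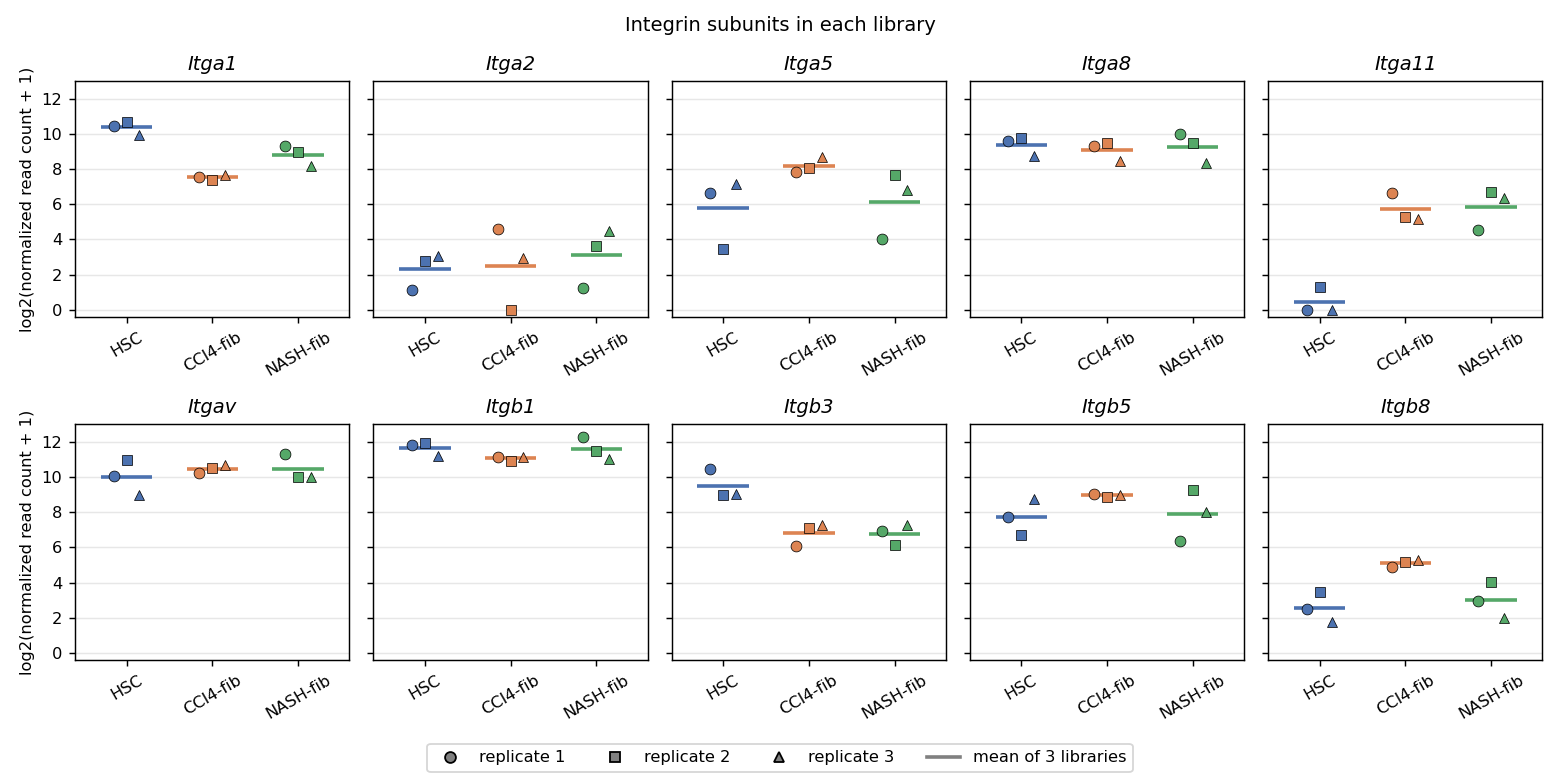
Normalized read count of each integrin subunit in each library, as log2(value + 1) on the vertical axis, with 3 libraries per group on the horizontal axis. Symbols mark replicate numbers and bars the mean of 3 libraries. Itga1 and Itgb3 are highest in HSCs, Itga11 is near 0 in HSCs, and Itgb8 is highest in CCl4-fib.

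Itga5, the fibronectin receptor subunit, lies on chromosome 15 from 103344286 to 103366791 (minus strand, NM_010577). It had 99.4, 10.2 and 140 in the HSC libraries, 227, 265 and 404 in those of CCl4-fib and 14.9, 199 and 109 in those of NASH-fib. CCl4-fib lay above both other groups without overlap, while the HSC and NASH-fib ranges overlapped. HSC replicate 2 and NASH-fib replicate 1 were the lowest libraries, at -3.41 and -3.22 relative to the other libraries of their group on the log2(value + 1) scale. Itga5 did not pass the threshold in CCl4-fib against HSCs (log2 fold change 2.43, 95% interval 0.12 to 4.73, adjusted p = 0.109 by limma). Without both libraries the difference was 1.29 and passed (adjusted p = 0.0272 by limma), and with GC content and length corrected it was 1.38 (adjusted p = 0.202 by limma). In NASH-fib against HSCs it was 0.38 (95% interval -1.92 to 2.69, adjusted p = 0.914 by limma).

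Itga8, a subunit known from stellate cells and smooth muscle, lies on chromosome 2 from 12106660 to 12301920 (minus strand, NM_001001309). It had 769, 864 and 422 in the HSC libraries, 643, 700 and 355 in those of CCl4-fib and 1025, 700 and 329 in those of NASH-fib. The groups overlapped almost fully. Its log2 differences of -0.27 in CCl4-fib and -0.08 in NASH-fib against HSCs had 95% intervals from -1.34 to 0.80 and from -1.16 to 0.99. Exons of Itga8 overlap those of the gene E030013I19Rik on the other strand by 372 bases, and reads of both strands were counted.

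Itgav, the alpha subunit shared by the receptors that act on latent transforming growth factor beta, lies on chromosome 2 from 83724397 to 83806917 (plus strand, NM_008402). It had 1053, 2026 and 493 in the HSC libraries, 1189, 1482 and 1621 in those of CCl4-fib and 2549, 1032 and 1040 in those of NASH-fib. The ranges overlapped, and the highest library of each of the groups HSC and NASH-fib was the one low in GC-rich genes. The log2 difference from HSCs was 0.48 in CCl4-fib (95% interval -0.69 to 1.65) and 0.46 in NASH-fib (95% interval -0.71 to 1.63), with adjusted p = 0.521 and 0.726 by limma. Itgav overlaps an antisense gene, Gm13684, over 634 exonic bases, and Itga1 overlaps Gm49395 on its own strand over 685.

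Itgb1, the beta partner of most of these alpha subunits, lies on chromosome 8 from 128685654 to 128733579 (plus strand, NM_010578). It had 3610, 3891 and 2358 in the HSC libraries, 2238, 1941 and 2257 in those of CCl4-fib and 5036, 2885 and 2043 in those of NASH-fib. HSCs lay above CCl4-fib without overlap, but the log2 difference of -0.59 did not pass (95% interval -1.43 to 0.26, adjusted p = 0.278 by limma). In NASH-fib against HSCs it was -0.05 (95% interval -0.90 to 0.80).

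Itgb3, the partner of Itgav in the vitronectin receptor and of Itga2b on platelets, lies on chromosome 11 from 104608000 to 104670471 (plus strand, NM_016780). It had 1431, 499 and 531 in the HSC libraries, 67.5, 135 and 156 in those of CCl4-fib and 124, 69.5 and 151 in those of NASH-fib. Every HSC library lay above every fibroblast library, and both kinds of fibroblasts overlapped. Itgb3 fell by 2.67 on the log2 scale in CCl4-fib (SE 0.52, 6.38-fold lower, adjusted p = 0.00373 by limma) and by 2.72 in NASH-fib (SE 0.52, 6.58-fold lower, adjusted p = 0.00579 by limma). The call in CCl4-fib held in all 20 alternatives, and that in NASH-fib in 19, being lost with the label date as a term (adjusted p = 0.112 by limma). The 5 markers of platelets and megakaryocytes summed to 72.8 to 280 in HSCs, 127 to 205 in CCl4-fib and 38.1 to 126 in NASH-fib, ranges that overlapped. Endothelial and macrophage markers moved with Itgb3 between HSCs and fibroblasts, and their part was not tested. Within HSCs, Itgb3 was highest in replicate 1, while both sums were highest in replicate 3. By replicate, the sums there were 8438, 4798 and 10832 for endothelial and 2565, 2991 and 8780 for macrophage markers.

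Itgb5, the other vitronectin-binding partner of Itgav, lies on chromosome 16 from 33829665 to 33949338 (plus strand, NM_001145884). It had 208, 102 and 429 in the HSC libraries, 533, 464 and 508 in those of CCl4-fib and 82.9, 617 and 257 in those of NASH-fib. CCl4-fib was even across its libraries, while the lowest HSC and NASH-fib libraries were again the ones low in GC-rich genes. The log2 difference of 1.26 between CCl4-fib and HSCs did not pass (95% interval -0.28 to 2.79, adjusted p = 0.201 by limma) and was 0.18 with GC content and length corrected.

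Itgb8, a partner of Itgav that activates latent transforming growth factor beta, lies on chromosome 12 from 119162803 to 119238276 (minus strand, NM_177290). It was read 4, 7 and 2 times in HSCs, 36, 41 and 39 times in CCl4-fib and 5, 17 and 3 times in NASH-fib. The normalized read counts were 4.68, 10.2 and 2.39, then 28.6, 34.9 and 37.2, and then 6.80, 15.1 and 2.95. Every CCl4-fib library lay above every library of both other groups. Itgb8 rose by 2.52 on the log2 scale in CCl4-fib against HSCs (SE 0.70, 5.73-fold, adjusted p = 0.0223 by limma), and in NASH-fib against HSCs the difference was 0.40 (95% interval -1.14 to 1.95, adjusted p = 0.843 by limma). Itgb8 passed the filter on low reads only through CCl4-fib, the group where it is high, and its call in CCl4-fib rested on few reads. It was lost without HSC replicate 1, HSC replicate 3 or any 1 of the CCl4-fib libraries (adjusted p = 0.0567 to 0.0743 by limma) and with the label date as a term (adjusted p = 0.121), while the log2 difference stayed between 1.90 and 3.05 over the 20 alternatives.

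In CCl4-fib against HSCs, 2 of the 10 subunits rose (Itga11 and Itgb8), beside 16.2% of all genes tested, and 2 fell (Itga1 and Itgb3), beside 11.7%. For 7 subunits the libraries of the groups did not overlap, beside 48.6% of all genes. In NASH-fib against HSCs, 1 rose (Itga11; all genes 8.23%) and 2 fell (Itga1 and Itgb3; all genes 4.3%), and 3 did not overlap, beside 24.4% of all genes. The median log2 fold change of the 10 was 0.34 in CCl4-fib and 0.28 in NASH-fib, against 0.18 and -0.02 over all genes. Both comparisons use the same HSC libraries.

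**Figure D2:**
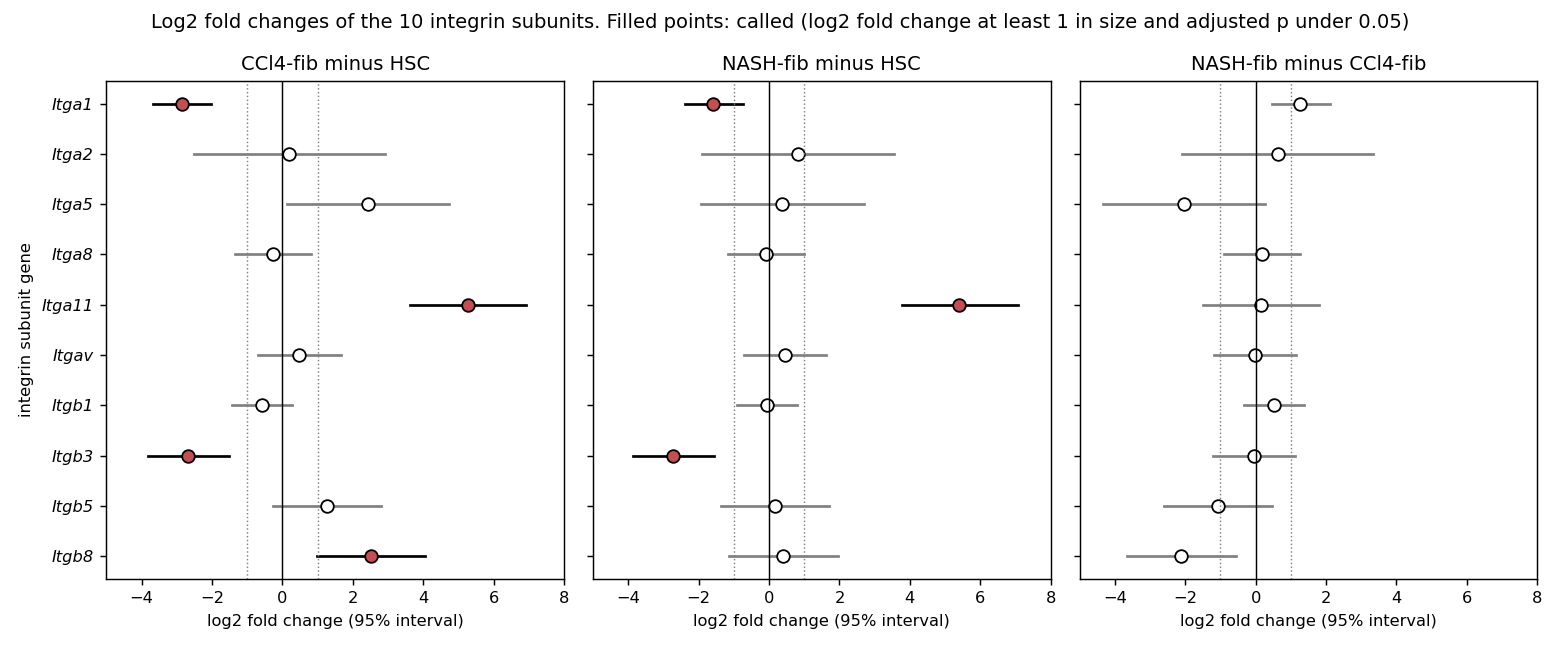
Log2 fold change of each integrin subunit (points) with its 95% interval (lines) by limma, in the 3 comparisons, with filled points for genes called. Itga1 and Itgb3 lie below 0 and Itga11 above 0 in both comparisons with HSCs, and no point is filled in NASH-fib against CCl4-fib.

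Between NASH-fib and CCl4-fib, 0 of the 10 subunits were called by limma, with 2 at an unadjusted p under 0.05, beside 4.97% of all genes called higher and 5.66% called lower. Itga1 and Itgb8 were the 2, and with Itga5 they made up the 3 subunits whose libraries did not overlap, beside 39.1% of all genes. Itga1 was 1.27 higher in NASH-fib on the log2 scale (95% interval 0.45 to 2.10, adjusted p = 0.054 by limma). It was called by edgeR's quasi-likelihood test (1.55, adjusted p = 0.041) and by DESeq2 (1.54, adjusted p = 0.00532), each of which called 1 subunit higher, and was 0.52 with GC content and length corrected. Itgb8 had a log2 difference of -2.12 (95% interval -3.66 to -0.57, adjusted p = 0.0791 by limma), and Itga5 of -2.04 (95% interval -4.35 to 0.26, adjusted p = 0.222 by limma). Itga11 and Itgb3, which separated both kinds of fibroblasts from HSCs, had differences of 0.14 (95% interval -1.50 to 1.79) and -0.04 (95% interval -1.20 to 1.11) between them. These intervals leave room for a change of over 2-fold in either direction.

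Label dates were shared by few libraries. At the 1 date that holds a library of each group, log2 differences between single libraries in CCl4-fib against HSC were -3.16 for Itga1, 5.33 for Itga11, -2.87 for Itgb3 and 1.40 for Itgb8. In NASH-fib against HSC they were -1.41 for Itga1, 3.21 for Itga11 and -2.00 for Itgb3. For each called difference the libraries of the groups did not overlap, so any pair of single libraries has the same direction. These values therefore cannot test an effect of the date. The HSC and NASH-fib libraries of this date are HSC replicate 2 and NASH-fib replicate 1, which were low in GC-rich genes.

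Levels of different subunits were compared per kb of transcript. Itgb1 was the highest of the 10 in every group, with a mean normalized read count per kb of 787 in HSCs, 514 in CCl4-fib and 795 in NASH-fib, and its range lay above that of the next subunit in each. In HSCs Itga1 followed at 227, then Itgav at 170, Itgb3 at 142, Itga8 at 119 and Itgb5 at 75.5, and neighbours in this order overlapped. In CCl4-fib the order was Itgav at 204, Itgb5 at 154, Itga8 at 98.4, Itga5 at 68.2, Itga1 at 30.8 and Itgb3 at 20.8, and of these neighbours Itga8 and Itga5 overlapped. In NASH-fib it was Itgav at 219, Itga8 at 119, Itgb5 at 97.7, Itga1 at 78.2 and Itga5 at 24.6, and of these neighbours Itga1 and Itga5 stood apart, as Itgb1 and Itgav did. Itga2, Itga11 and Itgb8 were the lowest 3 in every group, at 0.0992 to 1.87 in HSCs, 2.37 to 11.6 in CCl4-fib and 2.69 to 13.8 in NASH-fib. Part of this order depends on the length used. The table gives Itga1 a transcript of 5951 bases, and all its annotated exons together span 18599. Per kb of all annotated exons Itgb1 was still the highest in every group, but in HSCs Itga1 stood at 72.5, below Itgb3 at 139, Itgav at 111 and Itga8 at 93.0. In CCl4-fib Itga1 then stood at 9.85, below Itga11 at 11.1, and Itgb5 at 141 stood before Itgav at 133.

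As shares of the 6 listed alpha subunits per length, Itga1 made up 43.5% ± 4.99 (SD, n = 3) in HSCs, 7.43% ± 0.838 in CCl4-fib and 17.2% ± 2.15 in NASH-fib. The ranges of 38.6% to 48.6%, 6.47% to 7.98% and 15.9% to 19.7% did not overlap. With the length of all annotated exons, Itga1 made up 25.5% ± 3.21, 3.37% ± 0.383 and 8.39% ± 0.943, still without overlap, but in HSCs it then came after Itgav at 35.0% and Itga8 at 31.8%. Itgav made up 29.4% ± 9.93, 48.9% ± 5.30 and 46.7% ± 10.6 in the same order, and Itga8 22.3%, 23.9% and 25.1%. Of the 4 listed beta subunits, Itgb1 made up 77.8% ± 9.29, 73.5% ± 0.982 and 85.1% ± 9.85. Itgb3 held 13.7% ± 6.65 of them in HSCs, 2.99% ± 1.18 in CCl4-fib and 2.49% ± 1.68 in NASH-fib, and Itgb5 8.35% ± 7.31, 22.0% ± 0.778 and 12.1% ± 9.58. Itgb8 held 1.57% ± 0.248 in CCl4-fib, 0.181% ± 0.117 in HSCs and 0.295% ± 0.219 in NASH-fib. The share of Itgb8 depends on the length used as well, since the table gives its transcript 3080 bases and all its annotated exons together span 11060, which lowers the share in CCl4-fib to 0.442%.

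**Figure D3:**
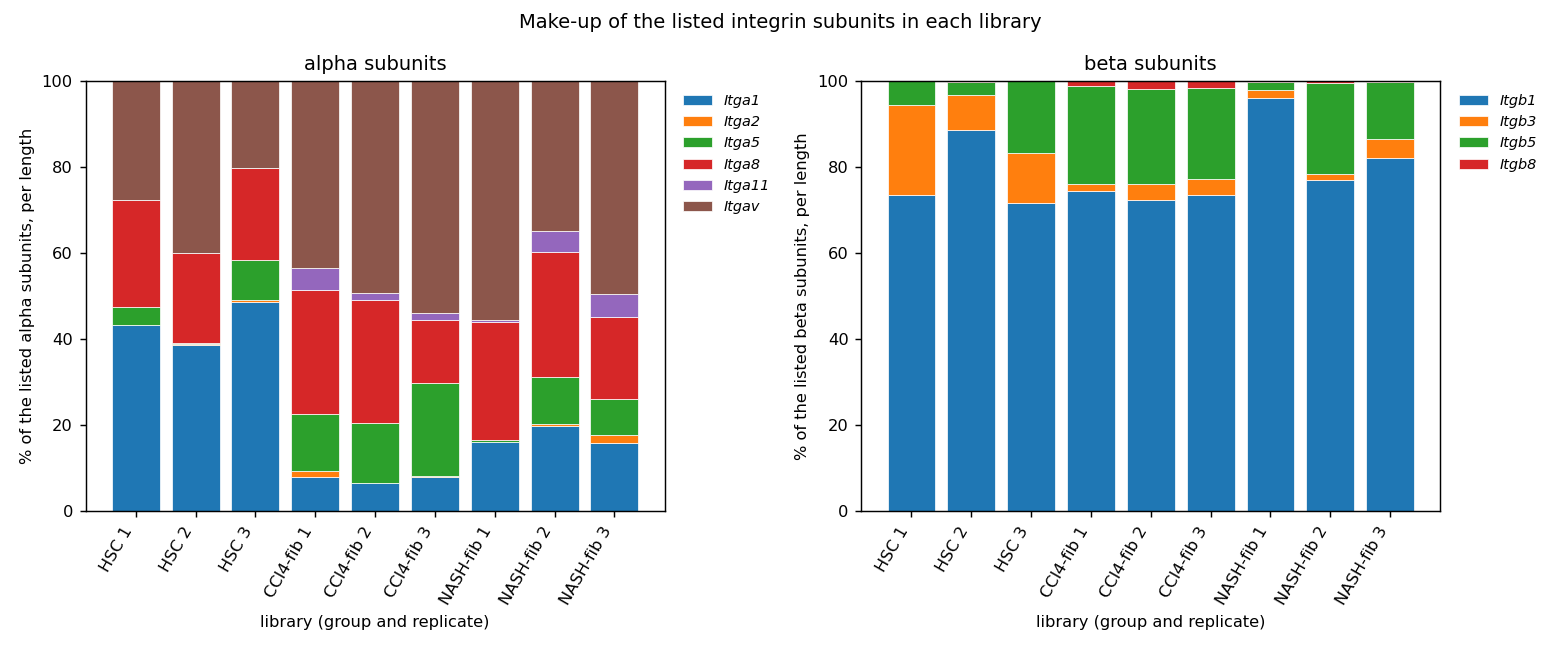
Share of each listed subunit in the summed level per length of the 6 alpha subunits (left) and of the 4 beta subunits (right), in percent, for each library. Itga1 makes up 38.6% to 48.6% of the alpha subunits in HSCs and at most 19.7% in any fibroblast library, or 22.4% to 28.8% and at most 9.46% with the length of all annotated exons, which is not plotted.

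Ratios between partners within a library do not depend on its scaling, and another transcript length would change a ratio by the same factor in every library. Itga1 over Itgb1, per kb, was 0.271, 0.299 and 0.296 in the HSC libraries, 0.058, 0.0597 and 0.062 in those of CCl4-fib and 0.0867, 0.12 and 0.0969 in those of NASH-fib. The 3 groups were apart, and the values of a group lay close together in HSCs and CCl4-fib, where replicate 2 of HSCs did not stand out. Both genes are among the GC-poor ones. Itgb8 over Itgav was 0.0101, 0.0115 and 0.0111 in the HSC libraries, 0.0548, 0.0537 and 0.0523 in those of CCl4-fib and 0.00608, 0.0334 and 0.00647 in those of NASH-fib. CCl4-fib was again apart from HSCs, and NASH-fib replicate 2 stood above the other NASH-fib libraries. Itgb8 was read only 4, 7 and 2 times in the HSC libraries and 5, 17 and 3 times in those of NASH-fib. The closeness of the HSC ratios is therefore no measure of their precision. Itgb3 over Itgav was 1.66, 0.301 and 1.31 in HSCs and between 0.0592 and 0.177 in the 6 fibroblast libraries. Itga8 over Itgb1 was 0.155, 0.161 and 0.13 in the HSC libraries, 0.209, 0.262 and 0.114 in those of CCl4-fib and 0.148, 0.176 and 0.117 in those of NASH-fib, and the groups overlapped. The pairs were chosen after the values were seen, and the ratios are given with no test.

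**Figure D4:**
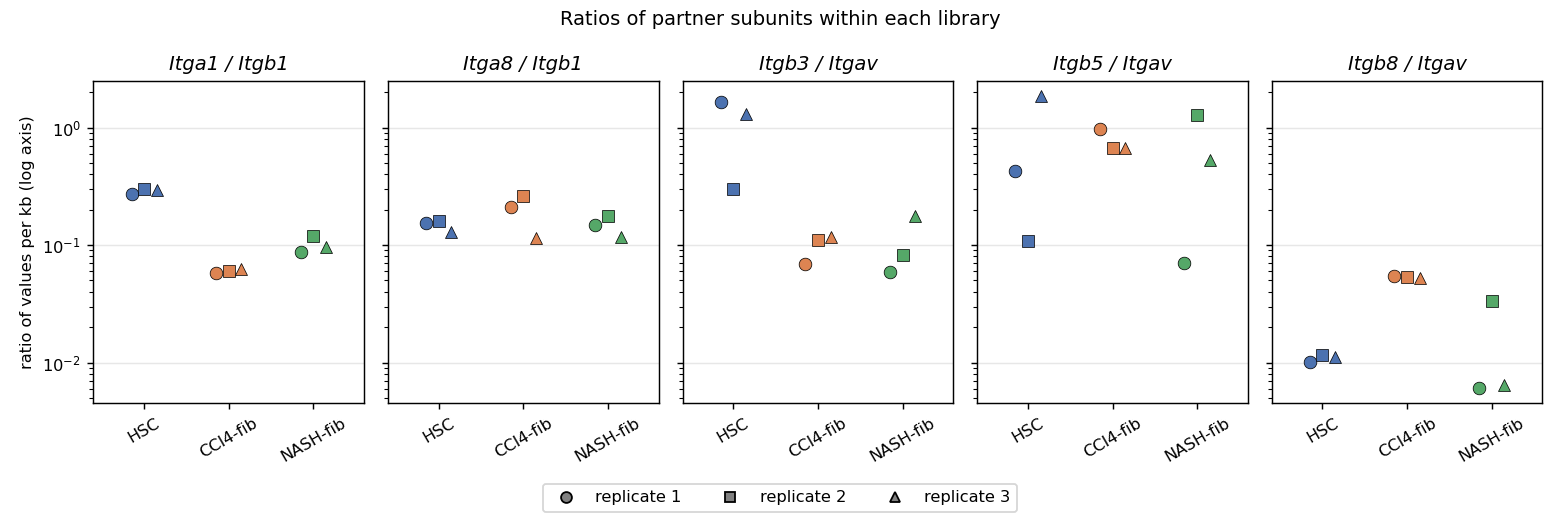
Ratio of 2 partner subunits within each library, per kb, on a log axis, with 3 libraries per group and symbols for replicate numbers. Itga1 over Itgb1 lies at 0.271 to 0.299 in HSCs, 0.0867 to 0.12 in NASH-fib and 0.058 to 0.062 in CCl4-fib, and Itgb5 over Itgav spreads widely in HSCs and NASH-fib.

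Itga5 and Itgb5 varied together more than other pairs of the 10, with Pearson's r of 0.94 over the 9 libraries on the log2(value + 1) scale. Itga11 and Itgb3 had r of -0.94, Itga1 and Itga11 -0.83, Itga5 and Itgb1 -0.82 and Itgb1 and Itgb5 -0.81. The libraries share groups and base composition, so these values only describe them. Itga5 and Itgb5 are the most GC-rich of the 10, and both were lowest in HSC replicate 2 and NASH-fib replicate 1, with Itgb5 at -1.54 and -2.25 relative to the others of the group. Itgav was 1.49 and 1.30 above the other libraries of its group in the same places. HSC replicate 3 lay the other way, at 2.07 for Itga5, 1.55 for Itgb5 and -1.57 for Itgav. The promoters of Itga5 and Itgb5 are shown because these genes moved together. Capitals mark GGGCGG or its reverse complement, the GC box, in windows of RefSeq promoters of GRCm38.p6 at chr15:103366792-103367041 (minus strand) and chr16:33829415-33829664 (plus strand).
Itga5: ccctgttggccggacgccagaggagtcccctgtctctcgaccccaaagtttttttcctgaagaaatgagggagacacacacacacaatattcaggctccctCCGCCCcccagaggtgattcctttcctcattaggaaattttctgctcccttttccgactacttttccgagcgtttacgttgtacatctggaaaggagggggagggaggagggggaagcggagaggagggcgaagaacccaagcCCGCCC
Itgb5: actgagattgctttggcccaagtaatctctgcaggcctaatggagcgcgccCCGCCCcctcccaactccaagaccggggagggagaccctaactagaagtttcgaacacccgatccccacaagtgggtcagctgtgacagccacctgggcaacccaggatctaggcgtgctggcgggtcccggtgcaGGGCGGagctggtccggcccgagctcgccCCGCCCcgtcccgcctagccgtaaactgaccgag
The windows hold 2 and 3 matches, on either strand, and Itgb1 holds 1. So 3 of the 9 members with a promoter in the table hold this motif, beside 32.7% of all promoters.

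**Figure D5:**
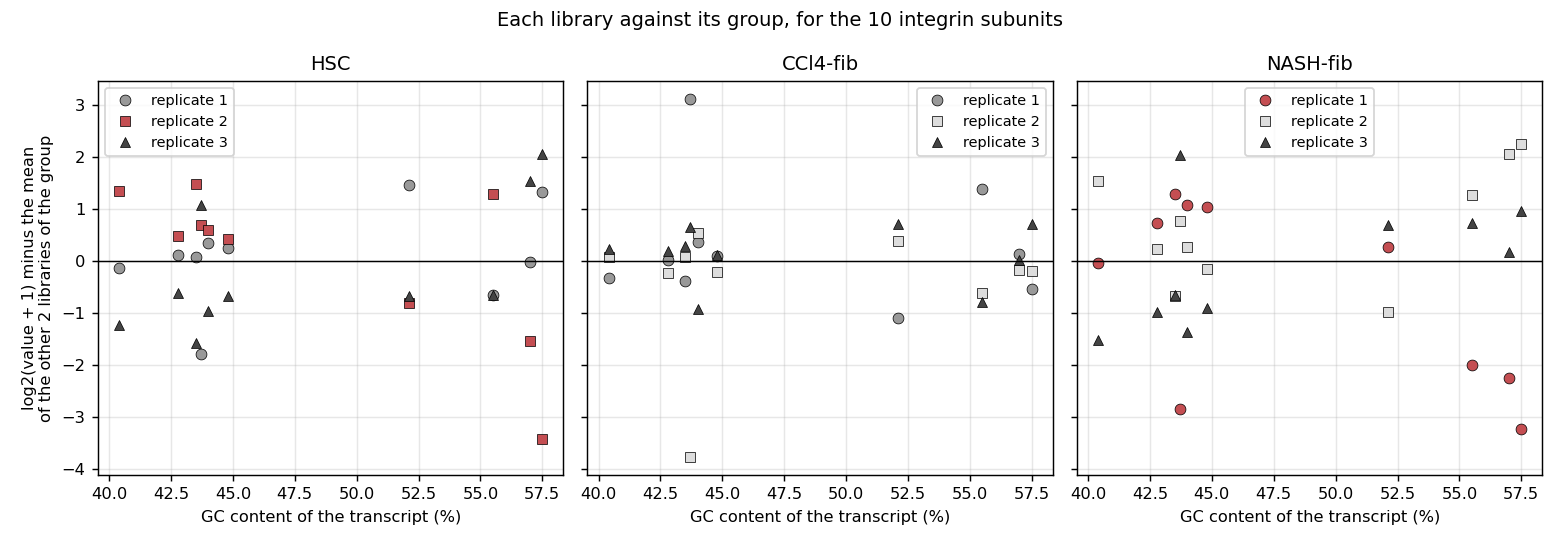
Each library's log2(value + 1) minus the mean of the other 2 libraries of its group (vertical axis) against the GC content of the exons in percent (horizontal axis), 1 point per subunit and library. HSC replicate 2 and NASH-fib replicate 1, in red, lie at -3.41 and -3.22 for Itga5, the most GC-rich subunit.

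The genes whose pattern over the 9 libraries was most like that of a subunit were named by the highest r. For Itga1 they were Akirin1 (0.991), Dcbld1 (0.987) and Frmd4a (0.986), and Dcbld1 had 83.0, 77.2 and 56.2 in HSCs, 2.55 to 4.77 in CCl4-fib and 4.91 to 28.6 in NASH-fib. For Itga11 they were Cspg4 (0.991), Sult5a1 (0.988) and Olfml2a (0.986). Cspg4, the proteoglycan NG2 that marks pericytes, had 0, 2.91 and 0 in the HSC libraries, 478, 88.5 and 72.5 in those of CCl4-fib and 50.3, 298 and 114 in those of NASH-fib. The 5 smooth muscle and pericyte markers summed to 15084 to 27613 in HSCs, 5035 to 26125 in CCl4-fib and 25748 to 38184 in NASH-fib. These ranges overlapped, so the sum did not separate HSCs from fibroblasts as Cspg4 did. CCl4-fib replicate 1 was the highest library of its group for the sum, for Cspg4 and for Itga11. NASH-fib replicate 2 was likewise the highest of its group for each. The lowest library of the sum was not that of Cspg4 in either kind of fibroblasts. The part of pericytes was not tested. For Itgb3 the first was Aff1 (0.973), for Itgb8 Agrn (0.963), for Itgb5 Psmg2 (0.989), for Itga5 Ssu72 (0.994), for Itgav Jund (0.979), for Itgb1 Pdcd10 (0.988), for Itga8 Gpd1l (0.950) and for Itga2 Prkar2a (0.901).

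Of 17 other integrin subunits, 13 were tested. In CCl4-fib against HSCs 3 rose, beside 16.2% of all genes, and 4 fell, beside 11.7% (median log2 fold change -0.43, or -0.63 with genes at the floor in HSCs set to their bound, against 0.18 over all genes). In NASH-fib 4 rose, beside 8.23% of all genes, and 1 fell, beside 4.3% (median 1.48, against -0.02). With the label date as a term, 1 of these 4 (Itga10) was still called, while Itga7, Itgb4 and Itgb6 were not (adjusted p = 0.0929, 0.419 and 0.126 by limma). Itga7, a laminin receptor subunit of muscle, had 9.35, 4.37 and 9.56 in the HSC libraries, 267, 109 and 141 in those of CCl4-fib and 53.0, 332 and 103 in those of NASH-fib. It rose by 4.27 in CCl4-fib and by 3.88 in NASH-fib on the log2 scale (adjusted p = 0.00116 and 0.00323 by limma). Itga10, the fourth of the collagen-binding alpha subunits with Itga1, Itga2 and Itga11, rose by 3.16 and 4.08 (adjusted p = 0.00223 and 0.000821 by limma), from 4.37 to 12.9 in HSCs. Itga9, which pairs with Itgb1 and binds tenascin and other ligands, had 1853, 1423 and 1368 in HSCs and 160 to 398 in fibroblasts, and fell in both (log2 fold change -2.76 and -2.34, adjusted p = 0.000315 and 0.00137 by limma). Collagen-binding subunits moved in both directions, with Itga1 lower and Itga10 and Itga11 higher in both kinds of fibroblasts.

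Itgb6, the epithelial partner of Itgav, had 0 reads in every CCl4-fib library, 0, 1 and 0 in HSCs and 23, 24 and 26 in NASH-fib. It was at least 10.0-fold higher in NASH-fib than in CCl4-fib (adjusted p = 0.00837 by limma) and at least 6.82-fold higher than in HSCs (adjusted p = 0.00254 by limma). Itgb6 passed the filter on low reads only through NASH-fib, the group where it is high, so these p-values are no independent support. The 5 cholangiocyte markers summed to 63.1 to 226 in HSCs, 3475 to 4750 in CCl4-fib and 5963 to 11604 in NASH-fib. Spp1, 1 of these 5 and also a listed integrin ligand, had means of 116, 1629 and 6944 in the same order. The higher sum in NASH-fib than in CCl4-fib rests on Spp1, and the part of cholangiocytes was not tested. Itgb4, the epithelial laminin receptor subunit, had 1, 3 and 0 reads in HSCs and 52 to 68 in CCl4-fib, at least 14.0-fold higher (adjusted p = 0.000819 by limma). The leukocyte subunits Itgal, Itgam and Itgb2 fell in CCl4-fib against HSCs (log2 fold change -5.71, -2.61 and -3.15, adjusted p = 0.00205, 0.0125 and 0.00933 by limma), beside macrophage markers at 2565 to 8780 and 160 to 230. Itgb4 was also called in NASH-fib against HSCs, at least 3.13-fold higher (adjusted p = 0.0354 by limma), in 5 of 19 alternatives. Between NASH-fib and CCl4-fib, 4 of these subunits rose (Itga4, Itgam, Itgb2 and Itgb6), beside 4.97% of all genes, and 1 fell (Itga2b), beside 5.66%. Itgam and Itgb2 differed by 2.93 and 2.71 (adjusted p = 0.0222 and 0.0414 by limma), beside neutrophil markers that summed to 580 to 5654 in NASH-fib and 5.55 to 41.0 in CCl4-fib, with Ly6g at 0 reads in CCl4-fib. Macrophage markers summed to 440 to 1825 and 160 to 230. By NASH-fib replicate, Itgam had 27.2, 24.9 and 33.4 and Itgb2 43.5, 60.6 and 120. In the same libraries neutrophil markers summed to 580, 5654 and 1063 and macrophage markers to 480, 440 and 1825. The part of these cells, which the CD45- gate is meant to remove, was not tested. Itga4, which binds fibronectin and VCAM1, had 393, 167 and 134 in NASH-fib and 52.4, 19.6 and 6.68 in CCl4-fib (log2 fold change 3.35, adjusted p = 0.0267 by limma). The calls of Itga4, Itgam, Itgb2 and Itga2b were each lost when 1 of at least 4 libraries was left out, NASH-fib replicate 1 and NASH-fib replicate 3 among them for each (adjusted p = 0.0505 to 0.163 by limma). That of Itga2b was also lost with the label date as a term (adjusted p = 0.0609 by limma) and with GC content and length corrected (adjusted p = 0.0704 by limma), and that of Itgb2 with the date (adjusted p = 0.0984 by limma), without the filter on low reads (adjusted p = 0.0516) and with these 2 groups alone (adjusted p = 0.0506).

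Of 29 genes of the machinery that links integrins to actin, 28 were tested. In CCl4-fib against HSCs 3 rose, beside 16.2% of all genes, and 3 fell, beside 11.7% (median 0.11, against 0.18 over all genes). These counts ran from 1 to 9 higher and from 2 to 8 lower over the alternatives. There were 9 higher without NASH-fib replicate 1 and 1 higher without HSC replicate 1 or CCl4-fib replicate 2. With GC content and length corrected, 8 were lower. In NASH-fib 0 rose, beside 8.23% of all genes, and 3 fell, beside 4.3% (median -0.38, against -0.02). In the higher direction 1 gene had an unadjusted p under 0.05 by limma, and edgeR called 0 and DESeq2 1. Tln2, a talin that binds beta subunit tails, fell in both (log2 fold change -3.25 and -3.42, adjusted p = 0.000736 and 0.000867 by limma). Tln1, the other talin, was called in neither (log2 fold change 1.15 and -0.50). Lims2 had the largest rise of the list in CCl4-fib (log2 fold change 3.49, adjusted p = 0.0179 by limma). Its adjusted p was 0.0578 to 0.0681 by limma without HSC replicate 1, HSC replicate 2, CCl4-fib replicate 1 or CCl4-fib replicate 2. Fermt2, the kindlin of mesenchymal cells, fell in both (log2 fold change -2.43 and -1.33, adjusted p = 0.00038 and 0.0189 by limma, the second being 0.0555 to 0.0788 without HSC replicate 1, HSC replicate 2, NASH-fib replicate 2 or NASH-fib replicate 3, 0.202 with the label date as a term and 0.0701 with these 2 groups alone), from a mean of 3148 in HSCs to 572 in CCl4-fib and 1225 in NASH-fib. Tgfb1i1, the paxillin relative Hic-5, rose by 3.03 in CCl4-fib (adjusted p = 0.00165 by limma) and fell in NASH-fib against CCl4-fib (log2 fold change -1.96, adjusted p = 0.0371 by limma, but 0.0937 to 0.134 without CCl4-fib replicate 1, CCl4-fib replicate 2, NASH-fib replicate 1 or NASH-fib replicate 3, 0.109 with the label date as a term and 0.106 with GC content and length corrected).

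Of 30 genes for integrin ligands and latent growth factor partners, 28 were tested, and 14 rose, beside 16.2% of all genes, and 0 fell, beside 11.7%, in CCl4-fib against HSCs (median 2.48, or 2.19 with genes at the floor set to their bound, against 0.18 over all genes). By limma 3 had an unadjusted p under 0.05 in the lower direction, and edgeR called 0 lower and DESeq2 2. In NASH-fib 12 rose, beside 8.23%, and 2 fell (Lamb1 and Postn), beside 4.3% (median 1.03, against -0.02). Over the alternatives 8 to 13 were higher, with 8 when the label date was a term, and 1 to 2 lower. Collagens are the ligands of Itga1, Itga2 and Itga11, and Col1a1 rose by 3.99 and 2.75 (adjusted p = 4.03e-05 and 0.000481 by limma). Col1a1 was picked after its values were seen. Its rise therefore does not stand for other collagens, such as those of the basement membrane that Itga1 binds. Fn1, the ligand of Itga5, rose by 2.47 in CCl4-fib (adjusted p = 0.000261 by limma), from a mean of 1392 to 7753, and its mean was 1476 in NASH-fib. Npnt, nephronectin, the ligand of Itga8, rose by 4.89 and 5.98 (adjusted p = 0.0028 and 0.00143 by limma), while Itga8 itself did not pass in either comparison. Spp1, osteopontin, which binds Itgav and Itga9 receptors, rose by 4.00 and 6.10 (adjusted p = 0.00107 and 0.000143 by limma). Tgfb3, whose latent complex Itgav receptors bind, rose by 5.99 and 4.85 (adjusted p = 0.000357 and 0.00202 by limma). Between NASH-fib and CCl4-fib, 2 ligand genes rose, beside 4.97% of all genes, and 8 fell, beside 5.66%. Fn1 was lower (log2 fold change -2.37, adjusted p = 0.00562 by limma) and Ibsp 5.79 higher (adjusted p = 0.011 by limma). The 8 became 3 with edgeR and with the label date as a term. Leaving out replicate 1, 2 or 3 of CCl4-fib brought the count to 2, 1 and 2, leaving out those of NASH-fib to 5, 4 and 1, and omitting HSC replicate 1 gave 5. Col1a2, whose promoter drives the reporter used for the sort, rose by 3.36 and 1.98 (adjusted p = 0.000163 and 0.00607 by limma). The second adjusted p by limma was 0.0841 with the label date as a term and 0.0525 with GC content and length corrected. As a gene used to choose the cells, Col1a2 is no independent result, and it is counted among the 14 and the 12 above.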

How the data were processed

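The 9 libraries were made from SMARTer-amplified total RNA with single-end sequencing. The authors mapped the reads to mm10 by STAR, and the submitters' processing notes also name CASAVA. Per the file headers, HOMER counted reads of both strands on RefSeq exons, keeping up to 3 reads at a position and 1 entry for all transcripts of a gene, and scaled them by its DESeq2 option over 10 libraries, 9 of which have columns. The signal values deposited by the authors are thus normalized read counts. In units of a single read, 100% of the values were whole (tolerance 0.01), and these recovered reads were used for depth, floors and count tests. Library totals limit the precision of low genes, and floors cover counting error only.

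The members and lists of genes were chosen with earlier results of these data known. Groups came from the titles of the libraries, and replicates are separate pools. Values were compared by limma 3.58.1 (R 4.3.3, trend) as log2(value + 1), in 1 fit over the 9 libraries and the 13651 genes kept at a minimum count of 10 by filterByExpr of edgeR, with Benjamini-Hochberg adjustment. Genes with few reads in other groups, such as Itga11, Itgb6 and Itgb8, passed this filter through the groups where they are high. Fold changes are on that scale, which understates the change of low genes. Calls needed both an adjusted p under 0.05 and an absolute log2 fold change of 1 or more. A group with at most 3 reads in every library was at the floor, and folds against it are lower bounds against the mean value of 3 reads. Ratios and shares used the transcript length of the table. GC content was computed from GENCODE exons for 24220 genes (99.0%). Alternatives were edgeR 4.0.16, DESeq2 1.42.0, upper-quartile scaling, pseudocounts of 0.5 and 5, no filter, the 2 groups compared only, a block for the replicate number, a term for the label date and each library left out. Leaving out HSC replicate 2 with NASH-fib replicate 1, a correction for GC content and length, and subunit levels and alpha shares by the length of all annotated exons, were added after seeing the data. The named genes were every member, the 3 genes nearest to each by Pearson's r, of which some are printed, up to 4 called genes of each list and direction with the largest change, and other integrin subunits. Col1a1, Col1a2, Fn1, Itga8's ligand and others of the lists that are named for their role as ligands of a member were chosen after their values were seen. The test was checked on simulated data.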

Additional observations from a re-analysis of the deposited data

How the results depend on the processing

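Over 20 alternatives to each of 10 subunits in 3 comparisons, 226 of 270 values with 1 library left out and 294 of 327 values with another setting kept their direction and their side of the threshold, and 0 of the 7 called differences turned. Low reads limit Itga2, Itga11 and Itgb8 most. The causes of the changes below were not tested. The median log2 fold change of all genes moved by -0.18 in CCl4-fib against HSCs and by 0.25 in NASH-fib against CCl4-fib with edgeR (DESeq2 -0.16 and 0.23), by -0.17 in CCl4-fib against HSCs and -0.18 in NASH-fib against HSCs with GC content and length corrected, and by 0.11 in both comparisons of NASH-fib without NASH-fib replicate 1.

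Of the subunits called higher in CCl4-fib against HSCs, 2 became 1 with the date term and 1 to 3 with a library left out. In NASH-fib against HSCs, 1 called higher became 0 with the date term, and 2 called lower became 0 with the date term, 1 with the 2 groups alone and 1 to 2 with a library left out. In NASH-fib against CCl4-fib, 0 called higher became 1 with edgeR, DESeq2 or upper-quartile scaling, and 0 called lower became 1 with a pseudocount of 5 or GC correction, each being 0 to 1 with a library left out. The replicate block changed none of these counts of members (2 higher and 2 lower, 1 and 2, 0 and 0). With it, Tgfb1i1 and Itga2b had adjusted p = 0.0712 and 0.0565 by limma in NASH-fib against CCl4-fib. Numbers did not pair the libraries, since deviations of same-numbered libraries correlated at -0.473 to 0.514, and no sample was paired for the report.

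Reversals were confined to values that were not called in the report. In CCl4-fib against HSCs, Itga2 was -1.11 with the date term, and Itga8 0.14 with it and 0.16 with GC correction. With 1 library left out, Itga2 ran from -0.84 to 1.46, Itga8 from -0.59 to 0.04 and Itgav from -0.04 to 0.98. In NASH-fib against HSCs, the date term gave -1.48 for Itga2, 0.56 for Itga8, 0.14 for Itgb1 and -0.19 for Itgb5, and edgeR and DESeq2 gave 0.09 and 0.10 for Itga8 and 0.12 and 0.12 for Itgb1. With 1 library left out, Itga5 ran from -0.75 to 1.45, Itga8 from -0.45 to 0.37, Itgav from -0.06 to 0.96, Itgb1 from -0.40 to 0.25, Itgb5 from -0.51 to 0.93 and Itgb8 from -0.11 to 0.90. In NASH-fib against CCl4-fib, the date term gave -0.37 for Itga2 and -0.26 for Itga11, GC correction -0.48 for Itga8 and 0.01 for Itgb3, and leaving out both libraries low in GC-rich genes -0.18 for Itga8. Itgav was 0.34 with edgeR and DESeq2 and 0.08 with upper-quartile scaling, and Itgb3 0.15, 0.13 and 0.06. With 1 library left out, Itga2 ran from -0.63 to 1.66, Itga8 from -0.18 to 0.64, Itga11 from -0.28 to 0.81, Itgav from -0.45 to 0.20 and Itgb3 from -0.41 to 0.28. Itga2 in both comparisons with HSCs, and Itgb8 in NASH-fib against HSCs, did not pass the filter with the 2 groups alone and have no value there. With exon-union lengths, the shares of Itgb1, Itgb5 and Itgb8 in CCl4-fib became 76.1%, 20.5% and 0.442%, that of Itgb8 in HSCs 0.0498%, and those of Itga1 in HSCs, CCl4-fib and NASH-fib 25.5%, 3.37% and 8.39%. Counts of other integrin subunits called ranged from 3 to 5 in CCl4-fib against HSCs in either direction, and of ligands from 13 to 16 higher. In NASH-fib against HSCs, ligands called higher ranged from 8 to 13 against 12 in the report. In NASH-fib against CCl4-fib, ligands called lower ranged from 1 to 8 against 8 in the report.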
